A study of Mus musculus with 14 samples.

Results

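WDR5 peaks that came back in 2 separate ChIP-seq libraries of the same cells, yet lay outside every H3K4me2 peak, were collected from *Mll1* flox MLL-AF9 leukemia cells. A peak of the ethanol (EtOH) WDR5 list on chromosomes 1 to 19 was included when it shared at least 1 bp with a 4-hydroxytamoxifen (4OHT) WDR5 peak and no base with a peak of any of the 4 H3K4me2 lists. This rule gave 492 peaks, or 1.45% of the 33974 autosomal EtOH WDR5 peaks and 7.75% of the 6349 that were recurrent under 4OHT. They are called recurrent WDR5 peaks outside H3K4me2 below.

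The cells were mouse bone marrow cells transformed by transduction with the MLL-AF9 fusion, and they were cultured with 15% serum and 10 ng per ml interleukin-3. The *Mll1* flox cells carried floxed alleles of *Mll1* (MLL1 flox/flox) and 1 Cre recombinase fused to the estrogen receptor (ER-cre+/-), and they received 400 nM 4OHT for 2 days, which activates the recombinase, or EtOH as the control. MAF9 cells carried MLL-AF9 without these alleles and received 20 µM MM-401, an inhibitor of the binding of MLL1 to WDR5, or DMSO. WDR5 and H3K4me2 were mapped in all 4 conditions and MLL1 only in MAF9 cells, with 1 library each, so that 10 peak lists were compared and no replicate error was available. Whether *Mll1* was lost under 4OHT could not be checked in these lists, because MLL1 was not mapped in the *Mll1* flox cells. The paper reports genotyping as its measure of how efficiently *Mll1* was deleted. The MAF9 and *Mll1* flox lists came from different cells and treatments, and these cannot be told apart where the lists differ.

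WDR5 is a β-propeller protein that holds the catalytic MLL or SET1 subunit together with its partners, and it is shared by all complexes of this family. These complexes place methyl groups on lysine 4 of histone H3, and the dimethyl form, H3K4me2, marks active or poised promoters and enhancers. In these lists, 43.2% of all autosomal EtOH WDR5 peaks (14668 peaks) lay outside every H3K4me2 peak, and 3.35% of those were recurrent under 4OHT, against 18.7% of all autosomal EtOH WDR5 peaks.

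The files hold peak positions on mm9 and nothing else. The depth of the libraries is unknown, no peak has a height or score, and absence from a list means only that no peak was called. The WDR5 lists held between 14481 peaks in DMSO and 41054 peaks under 4OHT. In 9 of the 10 lists the positions lay on a 25 bp grid, so widths moved in steps of 25 bp. No mm9 gene, repeat or sequence annotation was used here, so the peaks are given by position and whether they lie in repeats was not tested.

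The peaks were chosen by their overlap with 4OHT WDR5 peaks and by the lack of overlap with H3K4me2, and these values are given first, as a description. The recurrent WDR5 peaks outside H3K4me2 shared a median of 175 bp with 4OHT peaks, and 398 of them (80.9%) were covered under 4OHT over at least 50% of their length. Of the 492 peaks, 147 were covered over their whole length and 9 had the same start and the same end in both lists. They met 498 different 4OHT peaks, and 22 of them met more than 1. The weakest matches shared a single grid step of 25 bp, as did 19 peaks. One of these lay on chromosome 1 from 134387051 to 134387150. Just outside this limit, the EtOH peak on chromosome 1 from 82744401 to 82744575 directly touched a 4OHT peak without sharing a base. On the other side of the rule, the peak on chromosome 1 from 88374501 to 88374850 was included although it touched an EtOH H3K4me2 peak. The recurrent peak on chromosome 1 from 87701476 to 87701575 was not included because 25 bp of it lay in a DMSO H3K4me2 peak.

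The peaks were wide for a group outside H3K4me2. Their median width in EtOH was 275 bp (95% interval from order statistics 250 to 300 bp), and their widths ranged from 75 to 1350 bp. Recurrent EtOH WDR5 peaks on H3K4me2 (5857 peaks) had a median of 250 bp, and EtOH peaks outside H3K4me2 that were not recurrent (14176 peaks) had a median of 100 bp. A wide peak meets another peak more easily, so the distance to the second group follows in part from the rule. The first group was also chosen for recurrence, and here the upper end differed. Widths over 500 bp were found at 112 of the 492 peaks outside H3K4me2 (22.8%) and at 669 of the 5857 on H3K4me2 (11.4%). Among the non-recurrent peaks outside H3K4me2 there were 4.

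Some of the peaks touched H3K4me2 and others lay more than 1 Mb from it. The median distance to the nearest H3K4me2 peak of any list was 14438.5 bp (11276 to 19351 bp), with a smallest value of 1 bp, where the peaks touched, and a largest of 1314226 bp. Within 2 kb of H3K4me2 there were 109 of the peaks (22.2%), and 159 (32.3%) lay more than 50 kb away. Non-recurrent peaks outside H3K4me2 had a shorter median distance of 10201 bp (9801 to 10751 bp), with intervals that did not overlap. Of these, 21.4% lay within 2 kb and 25.2% beyond 50 kb. The first 500 bp from H3K4me2 held 15.7% of the recurrent peaks and 8.43% of the non-recurrent ones, so the recurrent peaks had larger shares at both ends. Counted against single lists, the median distance was 17863.5 bp in DMSO, 18401 bp under MM-401, 22001 bp in EtOH and 20751 bp under 4OHT.

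Width and distance went together. The 193 peaks of 75 to 200 bp had a median distance to H3K4me2 of 3276 bp (2451 to 4976 bp), and 40.4% (95% Wilson interval 33.7 to 47.5%) of them lay within 2 kb. For the 187 peaks over 200 and up to 500 bp the median distance was 21801 bp (12976 to 36876 bp). The 112 peaks over 500 bp had a median distance of 76063.5 bp (37026 to 110351 bp). Only 3 of these 112 (2.68%, 0.915 to 7.58%) lay within 2 kb of H3K4me2, and 62 (55.4%, 46.1 to 64.2%) lay beyond 50 kb. A wide peak that lies close to H3K4me2 is more likely to touch it and to be removed by the rule, so the low count near H3K4me2 is in part fixed by it.

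**Figure D1:**
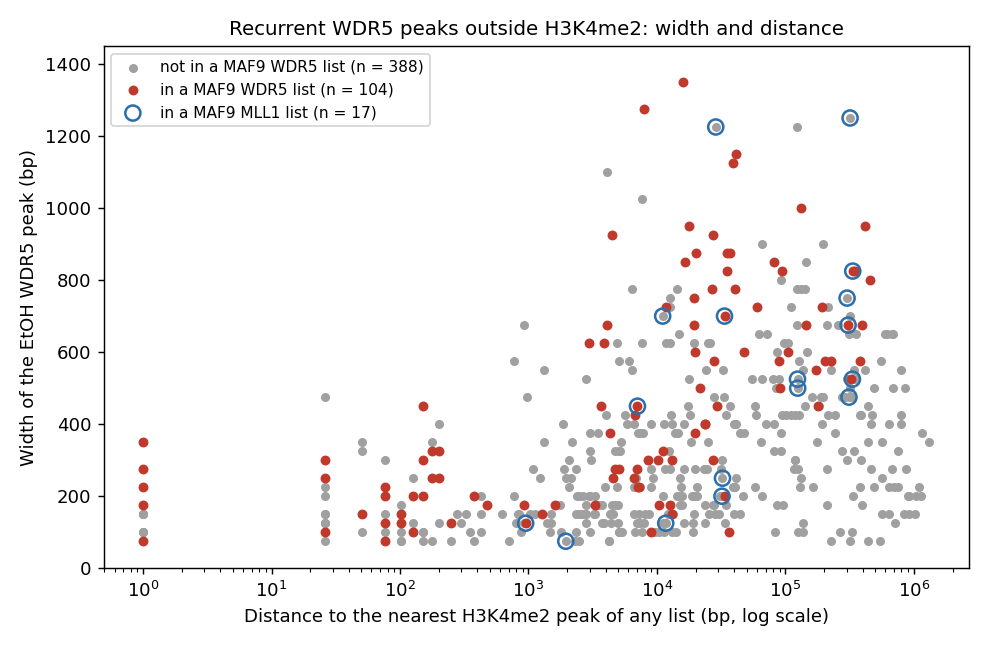
Width of the EtOH peak (bp, vertical) against the distance to the nearest H3K4me2 peak of any of the 4 lists (bp, log scale, horizontal) for the 492 recurrent WDR5 peaks outside H3K4me2, with red points (104) for overlap with a MAF9 WDR5 peak and blue rings (17) for overlap with a MAF9 MLL1 peak. The peaks over 500 bp sit mostly to the right, with 3 of 112 within 2 kb of H3K4me2.

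The MAF9 WDR5 and MLL1 lists had no part in choosing the peaks and were used to ask whether these sites are found in a second MLL-AF9 line. The MAF9 H3K4me2 lists did have a part, so the shares in MAF9 cells are not fully independent of the rule. With only the EtOH and 4OHT H3K4me2 lists in the rule, DMSO WDR5 overlapped 88 of 542 peaks (16.2%) and MM-401 WDR5 overlapped 76. The DMSO WDR5 list overlapped 74 of the 492 peaks, or 15.0% (12.2 to 18.5%), and the MM-401 WDR5 list overlapped 64, or 13.0% (10.3 to 16.3%). Over all autosomal EtOH WDR5 peaks the shares were 14.9% and 13.5%, so the shares of the group were near those of the list it came from, whose peaks were narrower, with a median of 125 bp. The shares lay between those of 2 other groups. Recurrent peaks on H3K4me2 were overlapped in DMSO in 42.7% of cases (41.5 to 44.0%), and non-recurrent peaks outside H3K4me2 in 0.423% (0.329 to 0.544%). Under MM-401 these shares were 37.5% (36.3 to 38.8%) and 0.578% (0.466 to 0.717%). In both lists the intervals of the 3 groups did not overlap. These intervals count peaks and treat neighbours as independent, and no p-value between conditions is given.

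Both MAF9 WDR5 lists held 34 of the peaks (6.91%, against 8.17% of all autosomal EtOH WDR5 peaks). DMSO alone held 40 (8.13%, against 6.69%) and MM-401 alone held 30 (6.10%, against 5.36%). At least 1 of the 2 lists thus held 104 peaks, or 21.1% (17.8 to 24.96%), against 20.2% of all autosomal EtOH WDR5 peaks. The other 388 were called as WDR5 peaks in the *Mll1* flox cells only. Seen from the MAF9 side, 69 of the 579 autosomal DMSO WDR5 peaks outside all H3K4me2 lay on 1 of these sites, or 11.9% (9.53 to 14.8%). Under MM-401, 56 of 1479 did so, or 3.79% (2.93 to 4.88%). How many of them lay on any other EtOH WDR5 peak was not counted, so both shares stand without a background.

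**Figure D2:**
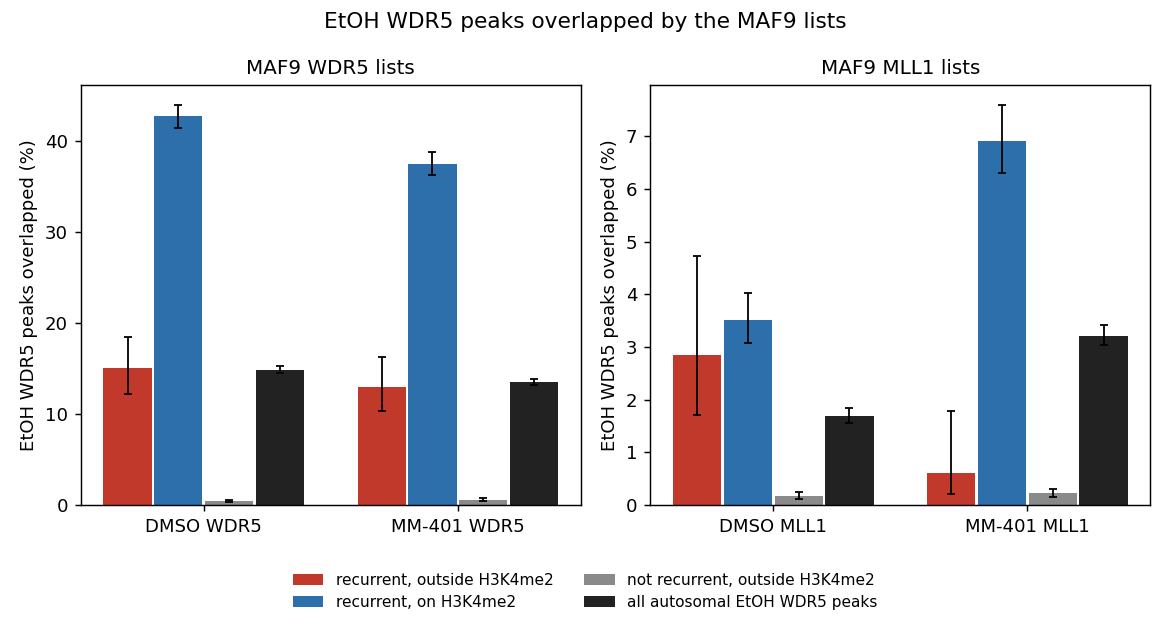
Bars give the share (%) of EtOH WDR5 peaks overlapped by at least 1 bp by the MAF9 list named below them, WDR5 on the left and MLL1 on the right with a different vertical scale, and error bars are 95% Wilson intervals. For WDR5 the recurrent peaks outside H3K4me2 (red, 15.0 and 13.0%) sit between recurrent peaks on H3K4me2 (blue) and non-recurrent peaks outside it (grey), near all autosomal EtOH WDR5 peaks (black).

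The gap to the peaks on H3K4me2 was also present among peaks of like width. In each of the 5 width classes examined, the recurrent peaks outside H3K4me2 were found less often in either MAF9 WDR5 list than those on H3K4me2, by more than the intervals. Among peaks of 75 to 100 bp, 10.3% (4.83 to 20.8%) of 58 were found in MAF9 cells, and 34.0% (30.4 to 37.7%) of 648 on H3K4me2. Between 300 and 500 bp the values were 14.7% (9.24 to 22.5%) of 109 and 65.0% (62.3 to 67.5%) of 1267. Above 500 bp they were 38.4% (29.9 to 47.6%) of 112 and 82.7% (79.6 to 85.3%) of 669. Against all autosomal EtOH WDR5 peaks of like width, the shares were also lower above 200 bp. Between 200 and 300 bp, 44.9% (43.3 to 46.5%) of all peaks were found in MAF9 cells, between 300 and 500 bp 58.6% (56.5 to 60.7%), and above 500 bp 75.4% (72.4 to 78.1%). Up to 200 bp the intervals of both overlapped. The gap to the non-recurrent peaks outside H3K4me2 held up to 100 bp, where 0.463% (0.330 to 0.650%) of 7124 were found, between 100 and 200 bp, with 14.8% (9.80 to 21.8%) of 135 against 0.711% (0.537 to 0.941%) of 6753, and between 200 and 300 bp, with 24.4% (16.2 to 34.9%) of 78 against 6.02% (3.74 to 9.55%) of 266. It could not be seen above 300 bp, where the non-recurrent group held 29 and 4 peaks and the intervals overlapped.

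**Figure D3:**
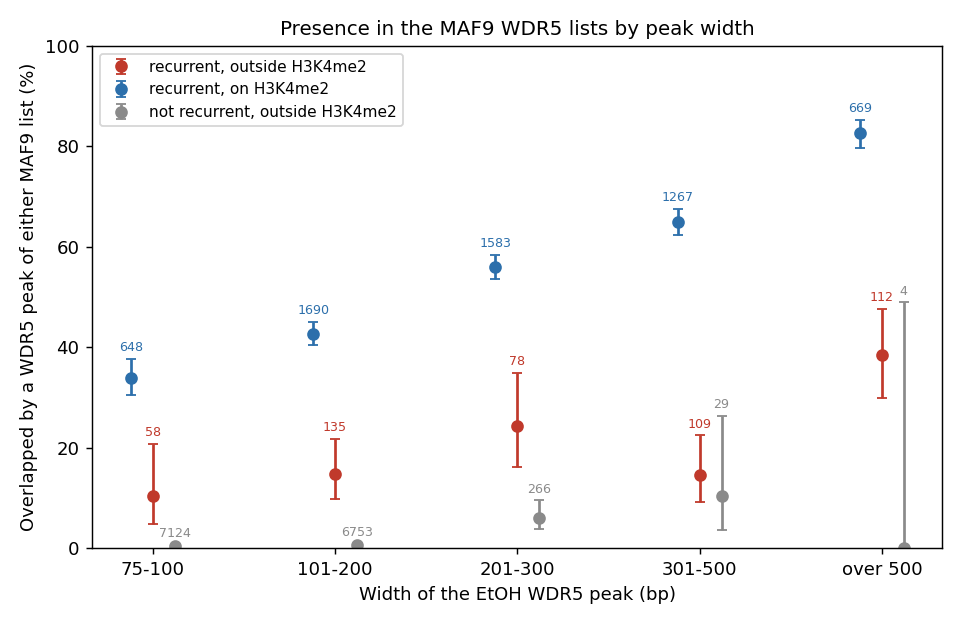
Points give the share (%) of EtOH WDR5 peaks overlapped by a WDR5 peak of either MAF9 list in 5 classes of EtOH peak width (bp), with 95% Wilson intervals as bars and the number of peaks beside them. The red points (recurrent, outside H3K4me2) stay below the blue points (recurrent, on H3K4me2) in every class, from 10.3 against 34.0% to 38.4 against 82.7%.

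The share found in MAF9 cells did not change evenly with distance to H3K4me2. Among the 77 peaks within 500 bp of H3K4me2, 27 were in either MAF9 WDR5 list, or 35.1% (25.3 to 46.2%). The share was 12.5% (4.97 to 28.1%) of 32 beyond that and up to 2 kb, 17.8% (11.7 to 26.1%) of 107 up to 10 kb and 28.2% (20.8 to 37.0%) of 117 up to 50 kb. Beyond 50 kb it was 13.2% (8.80 to 19.3%) of 159, lower than in the zone before it by more than the intervals, although the peaks there were the widest, with a median of 450 bp. The intervals of all other neighbouring zones overlapped. Non-recurrent peaks outside H3K4me2 were also found most often within 500 bp, at 4.77% (3.70 to 6.13%) of 1195. They were found least often beyond 50 kb, at 0.168% (0.0771 to 0.366%) of 3568. A high share next to H3K4me2 and a low share beyond 50 kb were thus not particular to the recurrent peaks.

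Where a peak met several peaks of another list, the widest was taken for its width there. At sites shared by both cell lines, the wide peaks of the *Mll1* flox cells were narrow in MAF9 cells. Over all 74 sites shared with DMSO, the EtOH peak was 2.13 times as wide as the DMSO peak (median ratio, 1.35 to 3), with median widths of 425 and 200 bp. At the 2502 recurrent peaks on H3K4me2 that were shared with DMSO, the median ratio was 1 (1 to 1.07). Up to 500 bp of EtOH width the intervals of the ratio overlapped between both groups. They did not overlap for wider peaks. For the 32 shared sites over 500 bp in EtOH, the median DMSO width was 150 bp (125 to 225 bp) and the median ratio 4.82 (4.17 to 5.50), against 1.84 (1.65 to 2.07) for the 490 shared sites over 500 bp on H3K4me2. For MM-401 the ratios were 4.79 (3.36 to 5.67) at 22 sites and 2.44 (2.25 to 2.67) at 420 sites. Of these 32 and 22 sites outside H3K4me2, 1 in each MAF9 list had a MAF9 peak over 500 bp. Choosing wide EtOH peaks makes any other list look narrower, which is why the same choice was made on H3K4me2. Against 4OHT, the same 112 peaks had a ratio of 1.17 (1.07 to 1.25), and the 669 on H3K4me2 a ratio of 1.5 (1.4 to 1.57).

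**Figure D4:**
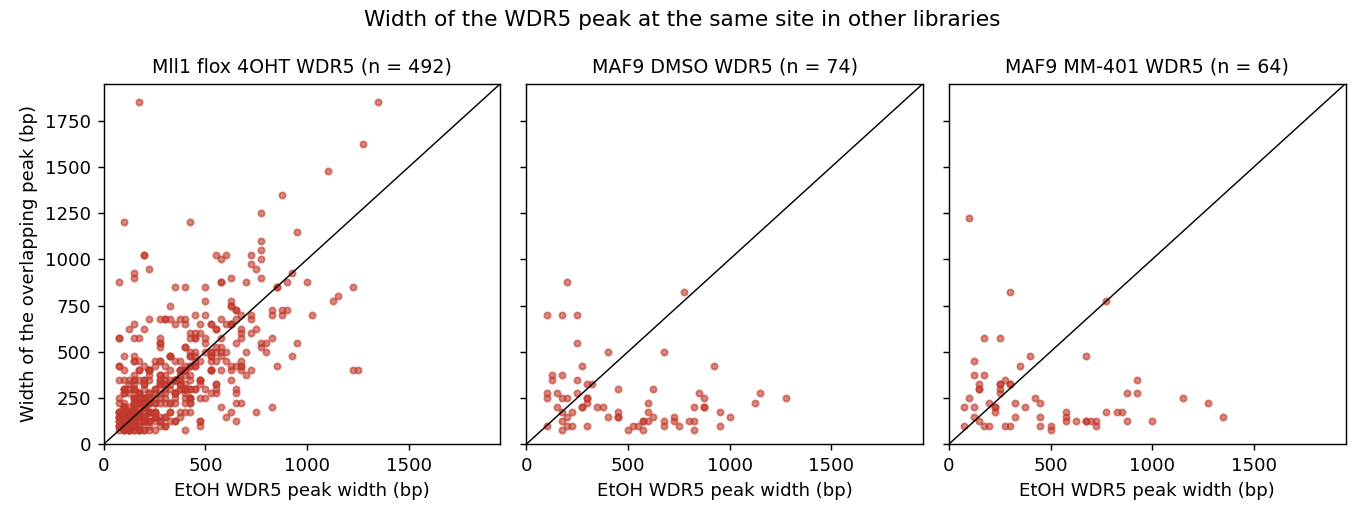
Width of the widest overlapping WDR5 peak (bp, vertical) against the width of the EtOH WDR5 peak (bp, horizontal) at each recurrent site outside H3K4me2, for 4OHT (492 sites), DMSO (74) and MM-401 (64), with a line of equal width. Points scatter on both sides of the line for 4OHT, while of the EtOH peaks over 500 bp, 1 in each MAF9 list has a partner over 500 bp.

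Several of the widest sites showed this pattern. The widest of the 492 peaks lay on chromosome 2 from 149126276 to 149127625. It measured 1350 bp in EtOH and 1850 bp under 4OHT, 150 bp under MM-401, and was not called in DMSO. The nearest H3K4me2 peak was 15901 bp away. The next widest, on chromosome 1 from 140124151 to 140125425, measured 1275 bp in EtOH, 1625 bp under 4OHT, 250 bp in DMSO and 225 bp under MM-401, with H3K4me2 7901 bp away. Both sites were thus wide in both *Mll1* flox libraries and narrow or uncalled in both MAF9 libraries.

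Another 3 sites of this kind were among the 10 widest. On chromosome 1 from 173654001 to 173655150, the widths were 1150 bp in EtOH, 800 bp under 4OHT, 275 bp in DMSO and 250 bp under MM-401. On chromosome 6 from 128563176 to 128564175, a site 133226 bp from H3K4me2, they were 1000, 875, 150 and 125 bp in the same order. The site on chromosome 6 from 131153701 to 131154825 had 1125 bp in EtOH, 775 bp under 4OHT and 225 bp in DMSO, and no MM-401 peak. The 5 others of the 10 widest were in no MAF9 WDR5 list. They included a peak on chromosome 17 from 34155076 to 34156175, with 1100 bp in EtOH and 1475 bp under 4OHT, 4076 bp from H3K4me2. A second one, on chromosome 2 from 86427726 to 86428950, had 1225 bp in EtOH and 850 bp under 4OHT.

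One wide site went the other way. On chromosome 5 from 18815351 to 18816125, the peak measured 775 bp in EtOH, 550 bp under 4OHT, 825 bp in DMSO and 775 bp under MM-401, so that it was about as wide in MAF9 cells. H3K4me2 lay 40776 bp away in DMSO and 1391201 bp away in EtOH. On chromosome 11 from 32242426 to 32243100, the widths were likewise close, at 675, 575, 500 and 475 bp. On chromosome 2 from 154932926 to 154933850 they were 925, 475, 425 and 350 bp, so the 4OHT width was near those in MAF9 cells. Other sites in both MAF9 WDR5 lists followed the pattern, such as chromosome 13 from 50964026 to 50964900, with 875, 725, 200 and 275 bp.

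The 5 sites farthest from H3K4me2 were narrower than the sites above and were in no MAF9 WDR5 or MLL1 list. Of all 159 peaks beyond 50 kb, 13.2% were in either MAF9 WDR5 list and 5.03% in either MLL1 list. Absence at 5 sites therefore does not set them apart. The median EtOH width of these 159 peaks was 450 bp. The most distant, on chromosome 12 from 22863851 to 22864200, lay 1314226 bp from the nearest H3K4me2 peak and measured 350 bp in EtOH and 275 bp under 4OHT. The next, on chromosome 7 from 93082626 to 93083000, lay 1154126 bp away and measured 375 and 400 bp. Over the 5 most distant sites the EtOH widths ran from 200 to 375 bp.

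MLL1, the methyltransferase whose complex WDR5 completes, was seldom called at these sites, and also seldom over the whole EtOH WDR5 list. The DMSO MLL1 list overlapped 14 of the 492 peaks, or 2.85% (1.70 to 4.72%), against 1.69% of all autosomal EtOH WDR5 peaks. The MM-401 MLL1 list overlapped 3, or 0.610% (0.208 to 1.78%), against 3.22%. Recurrent peaks on H3K4me2 were overlapped by MLL1 in 3.52% of cases (3.08 to 4.02%) in DMSO and in 6.91% (6.29 to 7.59%) under MM-401. The MM-401 share was thus lower outside than on H3K4me2 by more than the intervals. For DMSO the intervals overlapped. Without the 25 peaks that lay in chains of 3 or more close neighbours the DMSO share was 0.857% (0.334 to 2.18%). Chains were not taken out of the peaks on H3K4me2, so this value cannot be set against theirs. The DMSO MLL1 list differed from the other lists in its format and caller, so the step from 14 to 3 cannot be read as a change under MM-401. Either MLL1 list held 17 of the peaks, or 3.46% (2.17 to 5.46%), against 4.66% of all autosomal EtOH WDR5 peaks. Of these 17, 5 were also in a MAF9 WDR5 list (1.02%, against 1.97% of all autosomal EtOH WDR5 peaks).

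Of the 14 sites with DMSO MLL1, 10 belonged to 2 tight groups of peaks. Members were joined into chains when the next member followed within 50 kb, which gave 444 separate loci. Another member lay within 50 kb for 85 of the 492 peaks, or 17.3% (14.2 to 20.9%), and 30 of the 48 gaps between such neighbours were at most 1 kb long. Most neighbours thus lay very close together, and some of them met the same 4OHT peak. The 3 members on chromosome 8 from 13848226 to 13849500 all met 1 4OHT peak of 1025 bp. There were 30 pairs and 7 chains of 3 or more, with 25 peaks in these chains. With each group counted against itself, the share was 84.1% over all autosomal EtOH WDR5 peaks. It was 62.6% for recurrent peaks on H3K4me2 and 51.8% for non-recurrent peaks outside it. Larger groups of peaks fill the genome more densely, so these shares do not rank the groups by clustering.

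The longest chain held 6 of the peaks and began at the very first peak position of chromosome 9 in any list, from 2999826 to 3032850. Mouse chromosomes carry the centromere at their low-numbered end, next to blocks of satellite repeats. Within its 33025 bp, the EtOH WDR5 list had 23 peaks covering 9100 bp and the 4OHT WDR5 list had 9 peaks covering 2175 bp. The DMSO MLL1 list had 27 peaks covering 4318 bp, the MM-401 lists had 4 WDR5 peaks and 2 MLL1 peaks, and the DMSO WDR5 list had none. None of the 4 H3K4me2 lists had a peak there, and the nearest one was 301776 bp away. All 6 members were overlapped by DMSO MLL1 and 2 of them by MM-401 WDR5. The widest member, from 3015076 to 3016325, measured 1250 bp in EtOH and 400 bp under 4OHT.

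The chain on chromosome 2 from 98502101 to 98507675 held 4 of the peaks, all of them overlapped by DMSO MLL1. EtOH WDR5 covered 2800 of its 5575 bp, 4OHT WDR5 1250 bp and DMSO MLL1 2708 bp. DMSO WDR5 and MM-401 MLL1 were not called in it, MM-401 WDR5 covered 125 bp, and no H3K4me2 list had a peak. The widest member, from 98506451 to 98507675, measured 1225 bp in EtOH and 400 bp under 4OHT, and 1029 bp of it were shared with DMSO MLL1. In these 2 chains, closely spaced peaks without H3K4me2 came from WDR5 of the *Mll1* flox cells and from DMSO MLL1 of MAF9 cells. The DMSO MLL1 list differed from the others in format and caller. The other MAF9 WDR5 and MLL1 lists had few peaks there or none. Whether repeats or unevenly mapped sequence had a part in this was not tested, and input libraries were not analysed here.

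**Figure D5:**
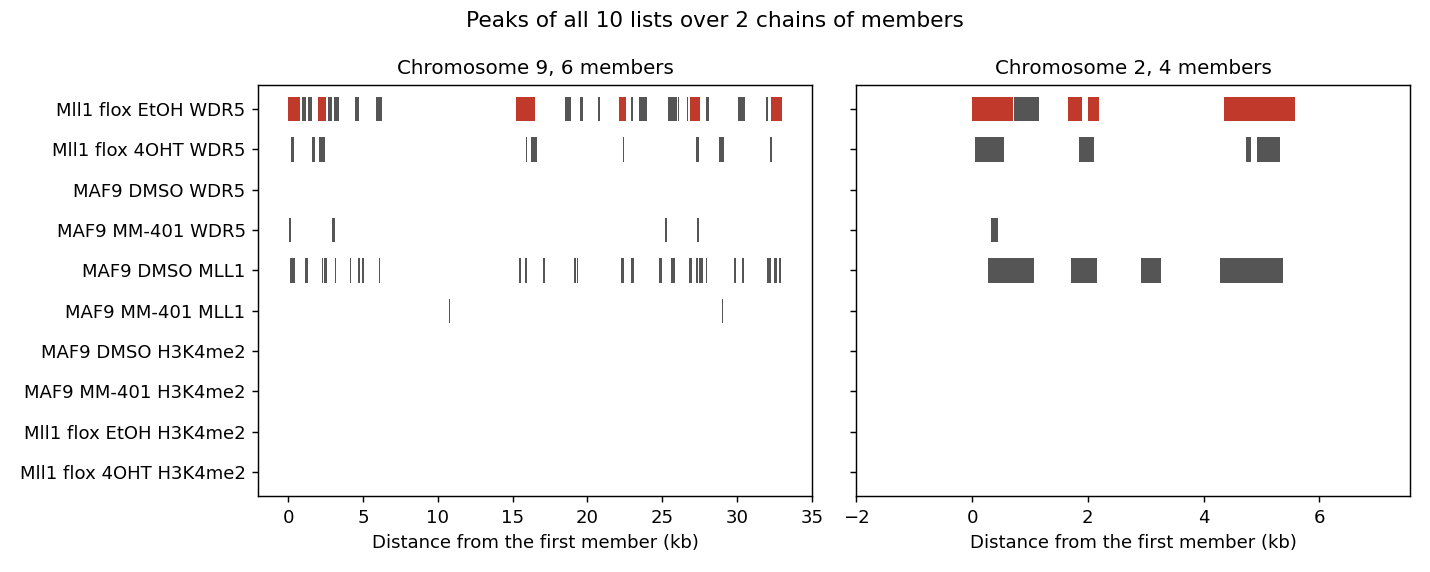
Peaks of all 10 lists over the 2 chains that hold 10 of the 14 sites with DMSO MLL1, on chromosome 9 (6 members) and chromosome 2 (4 members), against the distance from the start of the first member (kb), with recurrent EtOH WDR5 peaks outside H3K4me2 in red and other peaks in grey. In both panels WDR5 of the *Mll1* flox cells and DMSO MLL1 have peaks, and the 4 H3K4me2 rows are empty.

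The other 5 chains had no MLL1 peak. They lay on chromosome 7 from 5957126 to 5958125, chromosome 8 from 13848226 to 13849500, chromosome 9 from 44650326 to 44656025, chromosome 16 from 84668651 to 84670650 and chromosome 17 from 48329351 to 48334400, each with 3 of the peaks. On chromosomes 7, 8 and 16 the chain spanned 1000, 1275 and 2000 bp, and 4OHT peaks covered 750, 1175 and 1475 bp of it. The widest 4OHT peaks there, with 625, 1025 and 1350 bp, were wider than the widest EtOH peaks, with 550, 600 and 875 bp. The chains on chromosome 7 and on chromosome 9 near 44650326 were called in neither MAF9 WDR5 list. The latter had 3 EtOH and 4 4OHT WDR5 peaks over 5700 bp. Its members lay 3276 to 7751 bp from H3K4me2 of MAF9 cells in DMSO. In the *Mll1* flox cells the nearest H3K4me2 was 30651 to 31501 bp away, in EtOH and under 4OHT alike. The chain on chromosome 17 was called in MM-401 but not in DMSO, with 2 peaks covering 350 bp.

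Without the 25 peaks in chains, 4 of 467 peaks overlapped DMSO MLL1, or 0.857% (0.334 to 2.18%), while DMSO WDR5 overlapped 72, or 15.4%. The DMSO MLL1 share thus rested mostly on the 2 chains on chromosomes 9 and 2, and the DMSO WDR5 share did not. One of the 4 remaining sites, on chromosome 12 from 3109726 to 3110225, also lay near the start of its chromosome, 23925 bp from the first peak of any list. It measured 500 bp in EtOH and 250 bp under 4OHT. The site on chromosome 9 from 35112576 to 35113275 measured 700 and 375 bp and shared 397 bp with DMSO MLL1. The site on chromosome 1 from 134394351 to 134394800 was the one of the 14 that also overlapped DMSO WDR5, by 150 bp. On chromosome 8 from 26929001 to 26929125, a narrow peak of 125 bp was covered by DMSO MLL1 over its whole length.

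Low-numbered chromosome ends held more of the peaks than of the other groups. Within 1 Mb of the first peak of the chromosome lay 17 of the 492, or 3.46% (2.17 to 5.46%), against 1.12% (1.01 to 1.23%) of all autosomal EtOH WDR5 peaks. The share was 0.939% (0.722 to 1.22%) for recurrent peaks on H3K4me2 and 1.08% (0.922 to 1.26%) for non-recurrent peaks outside it. Without the chains, which were taken out of this group only, 11 of 467 remained, or 2.36% (1.32 to 4.17%). This interval lay just above the others. The peaks on chromosome 6 from 3003026 to 3003450 and on chromosome 16 from 3082326 to 3082625 were each the first peak of their chromosome in any list.

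Over the chromosomes the peaks were otherwise spread widely, from 11 on chromosome 18 to 40 on chromosome 2. Chromosome 9 held 39, or 7.93% (5.85 to 10.7%), against 4.66% (4.44 to 4.89%) of all autosomal EtOH WDR5 peaks. Without the chains, again taken out of this group only, its share was 6.42% (4.54 to 9.02%), and the intervals then overlapped. Chromosome 11 held 23, or 4.67% (3.13 to 6.92%), against 7.47% (7.20 to 7.75%) of all. Without the chains the interval for chromosome 11 reached 7.28% and overlapped that of all peaks.

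The peaks lay farther from other WDR5 peaks than the list as a whole. The nearest other EtOH WDR5 peak, recurrent or not, lay at a median of 11488.5 bp (8576 to 15551 bp), against 7901 bp (7701 to 8176 bp) over all autosomal EtOH WDR5 peaks. It was within 10 kb for 47.2% of the peaks (42.8 to 51.6%) and for 54.0% (53.5 to 54.6%) of the whole list. The share was 76.3% (75.2 to 77.4%) for recurrent peaks on H3K4me2 and 28.6% (27.9 to 29.3%) for non-recurrent peaks outside it.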

How the data were processed

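The submitters' processing notes name Bowtie and the mouse build mm9. The authors deposited 1 peak list per ChIP library as chromosome, start and end in bp. In 9 of 10 lists the peaks carried HPEAK names and lay on a 25 bp grid, and their starts were read as 1-based. The DMSO MLL1 list had neither, the study described MACS for it, and its starts were read as 0-based. For the other lists, calling thresholds are not given in the sources used here. Read depth and the 4 inputs were not analysed here.

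Overlaps (at least 1 bp) were found in numpy 2.4.6 under Python 3.11.15. Plots were made in matplotlib 3.10.9. The membership code was tested on simulated lists with known members, and gave the same 492 members as bedtools 2.31.1. Shares have 95% Wilson intervals and medians 95% intervals from order statistics (scipy 1.17.1). They cover the counting of peaks only. With 1 library per group no test between conditions was possible and no p-value was computed.

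Members, groups and alternatives were chosen with earlier results of these data known. Alternatives changed the overlap, the distance to H3K4me2, the H3K4me2 lists used, the smallest width, the reading of starts, the treatment of chains and the 50 kb step. Sites were named by rule: the 10 widest, those in both MAF9 WDR5 lists or in an MLL1 list (up to 10 each by width), chains of 3 or more, the 5 farthest from H3K4me2, and those nearest to the limits of the rule. The sites with DMSO MLL1 on chromosomes 1 and 8, and the first peaks of chromosomes 6 and 16, were named after their values were seen. The planned description of sequence and gene context was not made, because no mm9 genome or annotation was used here.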

Additional observations from a re-analysis of the deposited data

Results flagged for a closer look

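The share of sites that became wider lay on different sides of 50% under the treatments, with few sites in MAF9 cells. Of the 34 sites called in both MAF9 WDR5 lists, 12 were wider and 17 narrower under MM-401 than in DMSO, so that 41.4% of those that changed were wider. Between EtOH and 4OHT, 240 of the 492 sites were wider and 207 narrower under 4OHT, or 53.7% wider. The difference was not tested, and neighbours that met the same 4OHT peak or the same MAF9 peak were each counted. The mean width rose in both, by 37.5 bp under MM-401 and by 25.5 bp under 4OHT. So did the median, from 250 to 325 bp and from 275 to 300 bp. Under MM-401 most of the rise in the mean came from sites at 100619976 on chromosome 1 and 130138176 on chromosome 5. They went from 225 to 825 bp and from 700 to 1225 bp, while more sites narrowed than widened. For 4OHT the widest peak met was taken, so neighbouring EtOH peaks could be set against 1 wider 4OHT peak.

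On chromosomes X and Y, which the rule leaves out, 18 EtOH WDR5 peaks met the same conditions, 14 on X and 4 on Y, among 613 EtOH WDR5 peaks there.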

How the results depend on the processing

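The number of peaks ran from 359, with WDR5 peaks of 150 bp or more only, to 585, with 4OHT peaks within 100 bp allowed, and stayed within 1.5 times the reported 492 in all 6 alternatives. Over 65 recomputed values, 50 stayed within the interval, or for numbers of peaks within 1.5 times, of the reported value. When a peak within 2 kb sufficed for presence, the shares rose to 19.9% for DMSO WDR5, 17.7% for MM-401 WDR5 and 6.10% for MM-401 MLL1. Shares within 2 kb were not counted for the other groups or for all autosomal EtOH WDR5 peaks. These 3 values thus stand without a background and cannot be set against the shares at 1 bp. The DMSO MLL1 share was 1.51% when 4OHT had to cover 50% of the peak, 0.857% without chains of 3 or more and 1.35% when members up to 50 kb apart counted as 1 locus. The median width was 225 bp with 4OHT peaks within 100 bp, 350 bp with no H3K4me2 within 2 kb and 375 bp with peaks of 150 bp or more, and in the last 2 cases the median distance to H3K4me2 was 30151 and 23676 bp. The share with another member within 50 kb was 13.6% when 50% had to be covered, 23.6% with 4OHT peaks within 100 bp, 12.8% without chains and 26.4% with a step of 200 kb. No paired analysis was possible because each group had 1 library and the labels give no replicate numbers. Unknown depth limits every absence: a site missing from a list may have had too few reads to be called.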
